A study of Rattus norvegicus with 74 samples.

Results

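Liver gene expression was compared between rat pups given DE-71 at 50 mg/kg and pups given DE-71 at 15 mg/kg, the upper step of the dose series of this brominated flame retardant mixture. The samples were taken by their dose labels, which gave 4 arrays at 50 mg/kg and 5 at 15 mg/kg, or 9 of the 74 arrays of the series. Replicates 1 and 2 at 15 mg/kg were nearly identical and were averaged, which left 4 samples against 4, or 8 of 72 samples. Both groups were Wistar Han rats (Crl:WI (Han)) treated by oral gavage. Dams were dosed daily from gestation day 6 to 21 and pups from postnatal day 12 to 21, and the left liver lobe was taken on postnatal day 22. The DE-71 groups at 0 and 0.1 mg/kg had the same schedule, as had the 0, 15 and 50 mg/kg groups of PBDE-47 used for comparison. Pups of the same strain given phenobarbital at 45 mg/kg or PCB126 at 250, labelled mg/kg, a unit that could not be checked, were set against the 0 mg/kg group of the same agent, and their dosing days are not given in the sources used here. The labels give neither litter nor sex, so the p-values reflect how far single samples spread within groups, pooled over all 15 groups of the series. That spread may be in part technical.

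DE-71 is a commercial mixture of polybrominated diphenyl ethers, and PBDE-47 is a single tetrabrominated congener found in it. Such mixtures act on liver through the nuclear receptors CAR and PXR, which switch on cytochrome P450, carboxylesterase and conjugation genes. Commercial mixtures also hold dioxin-like compounds that bind the aryl hydrocarbon receptor (AhR), whose classic target is Cyp1a1. NRF2 is a transcription factor of the antioxidant response, whose targets include glutathione S-transferases. In bulk liver, fewer cells of a type and less RNA per cell cannot be told apart.

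Each value below is a log2 expression level from a rat expression array, normalized by robust multi-array average, with 1 probe set per gene. Square brackets after a log2 fold change hold its 95% confidence interval. Levels are compared between samples within a gene and not between genes. A gene was called, and is said to have risen or fallen, at a limma p-value below 0.05 after Benjamini-Hochberg adjustment over all 14217 genes. The hepatocyte markers Alb, 14.72 to 14.78 at 50 mg/kg and 14.76 to 14.79 at 15 mg/kg, and Apoa1 and Ttr stood among the brightest genes in all 8 samples. The Y-linked gene Eif2s3y lay at 8.75 to 9.41 at 50 mg/kg and 8.74 to 9.19 at 15 mg/kg, and the X-linked Xist at 2.63 to 3.15 at 50 mg/kg and 2.87 to 3.05 at 15 mg/kg. The 50 mg/kg group had the widest spread of all 15 groups, with a median SD per gene of 0.212 against 0.153 at 15 mg/kg. Its replicate 2 stood farthest apart, with a mean correlation of 0.978 with the rest of its group. Replicate 4 at 50 mg/kg and replicate 5 at 15 mg/kg were nearly identical although they carry different doses, with a root mean square difference of 0.124 log2 over the 300 most variable genes expressed at a mean of at least 7. Whether that pair stands for separate animals cannot be told from the files. Results are therefore also given without replicate 2 at 50 mg/kg and without that pair, and leaving out both is called leaving out the 3 arrays. What then remains is replicates 3 and 5 at 50 mg/kg, against replicates 1 and 2 (averaged), 3 and 4 at 15 mg/kg. A call in that fit can therefore rest on a single 50 mg/kg sample.

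A small set of genes changed in the step to 50 mg/kg. Of the genes tested, 28 were called, 19 higher and 9 lower at 50 mg/kg, which is 0.197% of all genes. They changed 1.28- to 2.98-fold, and 13 of them at least 2-fold. The largest rises were those of the protease inhibitor gene Slpi (2.98-fold), the aldehyde dehydrogenase gene Aldh3a1 (2.92-fold) and the sialyltransferase gene St6galnac2 (2.88-fold). The largest falls were those of the plasma protein gene A2m (2.79-fold) and the steroid synthesis gene Cyp17a1 (2.61-fold). Before adjustment, 1946 genes (13.7%) had a p below 0.05, 1006 of them higher (7.08%) and 940 lower (6.61%) at 50 mg/kg.

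The calls rested on single samples and on the spread of the other groups of the series. Without 50 mg/kg replicate 2, 1 gene was called (Tdh), and without 15 mg/kg replicate 3, 2 genes were (Tdh and Egln3). Without 50 mg/kg replicate 4 the count was 531. Leaving out the near-identical pair gave 399 calls (2.81%), which held all 28 genes, and leaving out the 3 arrays gave 14 calls (0.0985%), all of them among the 28. When the spread was taken from these 8 samples alone, or from the DE-71 groups alone, limma called 0 genes. At an unadjusted p below 0.05 there were 644 and 841 of the 14217 genes. With no difference at all, a share of about 0.05 would lie below that level, and those counts were near it. The direction of all 28 genes was the same in each of these fits.

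**Figure D1:**
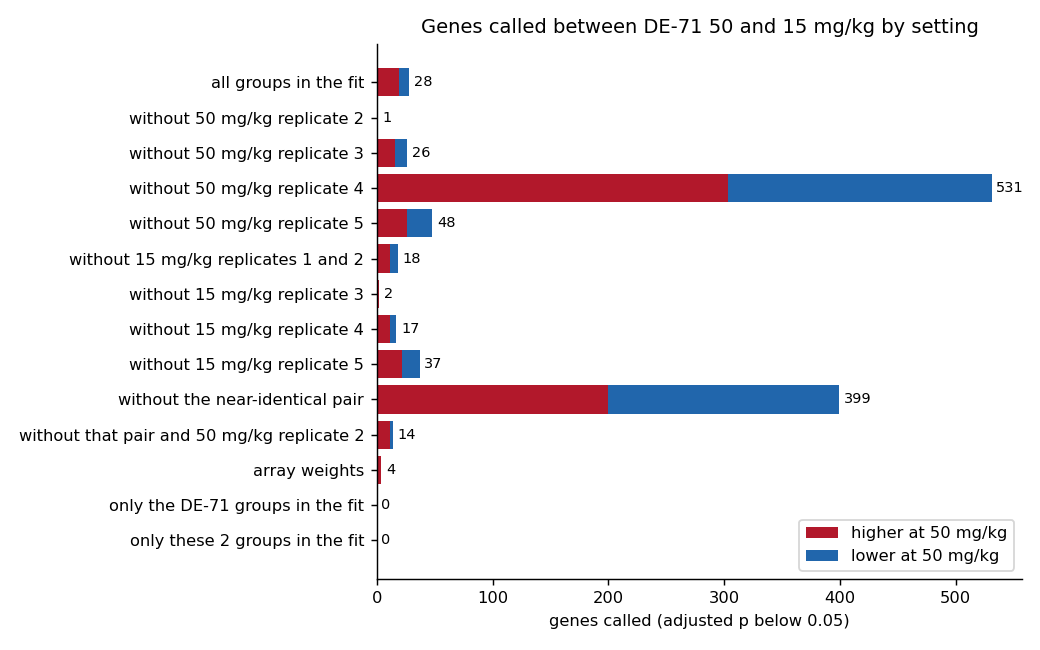
Number of genes called between DE-71 50 and 15 mg/kg (x axis, adjusted p below 0.05) in fits that leave out samples, weight arrays or take the spread from fewer groups (y axis). Red bars count genes higher at 50 mg/kg and blue bars genes lower, the totals are printed beside the bars, and they range between 0 and 531 around the 28 calls with all groups.

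Among the 28 genes, 8 had every 50 mg/kg sample beyond every 15 mg/kg sample: Tdh, Trim2, Slpi, Bdh2, Fgfr3, Atp6ap1l, Usf3 and Lysmd2. Such a gap between the groups occurred in 323 genes in all (2.27%). The 50 mg/kg samples did not contribute alike. Replicates 2 and 5 lay outside the range of the 15 mg/kg samples in 28 of the 28 genes, replicate 3 in 24 and replicate 4, the array that resembles a 15 mg/kg array, in 9. Replicate 2 was farthest from the 15 mg/kg mean in 25 genes, with a median distance of 1.78 log2, and replicate 4 nearest in 23, with a median distance of 0.188. These counts describe the genes called on the same samples. In what follows, values at 50 mg/kg are given for replicates 2, 3, 4 and 5, and values at 15 mg/kg for the mean of replicates 1 and 2 and then for replicates 3, 4 and 5.

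**Figure D2:**
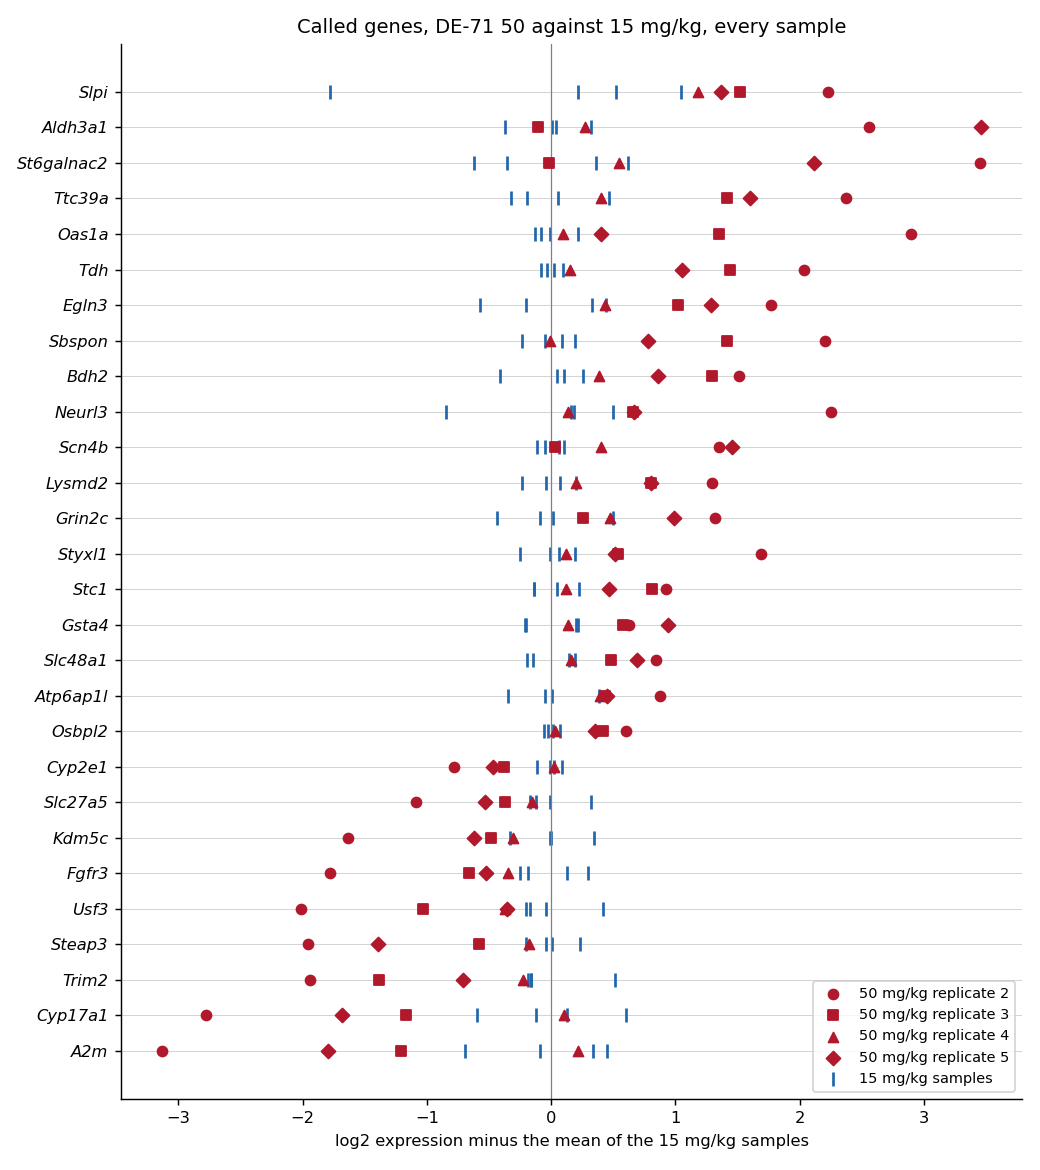
Log2 expression of each sample minus the mean of the 15 mg/kg samples (x axis) for the 28 called genes (y axis). Red symbols are the 4 samples at 50 mg/kg, 1 symbol per replicate, and blue ticks the 4 samples at 15 mg/kg; replicate 2 (circles) lies farthest out in 25 genes, and replicate 4 (triangles) lies among the 15 mg/kg samples in most.

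Genes of xenobiotic metabolism were few among the calls, and they did not move together. Aldh3a1, an AhR target that oxidizes aldehydes, stood at 6.20, 3.53, 3.91 and 7.10 at 50 mg/kg, against 3.65, 3.26, 3.68 and 3.96 at 15 mg/kg (log2 fold change 1.55 [0.96 to 2.14], adjusted p = 0.00634). The rise lay in replicates 2 and 5, while replicates 3 and 4 lay within the 15 mg/kg range. Gsta4, a glutathione S-transferase for products of lipid peroxidation, stood at 12.38, 12.33, 11.89 and 12.69 at 50 mg/kg, against 11.97, 11.55, 11.54 and 11.95 at 15 mg/kg (log2 fold change 0.57 [0.31 to 0.83], adjusted p = 0.0336). In Gsta4, 3 samples at 50 mg/kg lay above all samples at 15 mg/kg, and replicate 4 lay between them. Cyp2e1, the ethanol-oxidizing P450 and an abundant hepatocyte gene, fell to 13.11, 13.51, 13.91 and 13.42 at 50 mg/kg, against 13.78, 13.98, 13.88 and 13.91 at 15 mg/kg (log2 fold change -0.40 [-0.56 to -0.24], adjusted p = 0.00877). All 3 genes were also called without the 3 arrays, with log2 fold changes of 1.79, 0.82 and -0.42. For Aldh3a1 that value rested on replicate 5, since replicate 3, the other 50 mg/kg sample kept, lay within the 15 mg/kg range.

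Of the 28 genes, Gsta4 alone was also called between 15 and 0 mg/kg, a contrast that shares samples with the step, and its promoter is shown because it holds the letters GCGTG, the core of the AhR response element, more than once. The window runs from 250 bases before to 50 after the RefSeq start, at chr8:87947015-87947314 on the plus strand of GRCr8, with the 3 matches in capitals (1 as GCGTG and 2 as CACGC, its other strand).
Gsta4: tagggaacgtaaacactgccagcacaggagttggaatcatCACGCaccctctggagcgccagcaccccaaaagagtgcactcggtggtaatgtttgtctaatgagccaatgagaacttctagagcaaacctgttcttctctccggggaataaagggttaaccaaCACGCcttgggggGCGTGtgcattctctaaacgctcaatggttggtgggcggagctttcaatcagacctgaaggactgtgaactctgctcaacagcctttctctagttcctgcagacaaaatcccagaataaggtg
RefSeq windows were at hand for 17 of the 28 genes. GCGTG on either strand was in 6 of the 17 windows (35.3%), among them those of Styxl1, Slc27a5, Bdh2, Fgfr3 and Usf3, and in 45.8% of all 11700 windows. More than 1 match was not particular to Gsta4: the window of Fgfr3, a gene that fell, held 2 on each strand. ACGTG, the core bound by hypoxia-inducible factors, was in 3 of 17 (17.6%) against 24.1% of all windows, and TGACNNNGC, a core of the antioxidant response element, in 3 of 17 (17.6%) against 14.4%. ACGTG and GCGTG share their last letters and can overlap. A match describes the letters and is no evidence of binding.

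Of called genes that handle steroids, bile acids and other lipids, 2 fell and 2 rose. Cyp17a1, which makes androgen precursors in steroid synthesis, stood at 8.63, 10.23, 11.50 and 9.71 at 50 mg/kg, against 10.80, 12.0, 11.28 and 11.53 at 15 mg/kg (log2 fold change -1.39 [-1.97 to -0.81], adjusted p = 0.0144). Slc27a5, which activates bile acids for conjugation, stood at 11.56, 12.28, 12.50 and 12.12 at 50 mg/kg, against 12.48, 12.97, 12.64 and 12.53 at 15 mg/kg (log2 fold change -0.54 [-0.77 to -0.31], adjusted p = 0.0144). In both genes 50 mg/kg replicate 2 was lowest, and replicate 4 overlapped the 15 mg/kg samples. Osbpl2, an oxysterol-binding protein gene, rose by a small amount, with 8.59, 8.41, 8.02 and 8.35 at 50 mg/kg, against 7.96, 8.0, 7.93 and 8.06 at 15 mg/kg (log2 fold change 0.35 [0.20 to 0.50], adjusted p = 0.0146). The Bdh2 gene, for a cytosolic dehydrogenase, stood at 6.26, 6.04, 5.13 and 5.60 at 50 mg/kg, against 4.33, 4.79, 4.84 and 5.0 at 15 mg/kg (log2 fold change 1.01 [0.55 to 1.48], adjusted p = 0.0378), with no overlap between the groups. Without the 3 arrays, Cyp17a1 (-1.39) and Osbpl2 (0.41) were called, while Slc27a5 (-0.50, adjusted p = 0.119) and Bdh2 (1.16, adjusted p = 0.111) were not.

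Tdh had the smallest p-value of all genes and was called in every fit that kept all groups of the series and tested it. It encodes threonine dehydrogenase, which starts the breakdown of threonine to glycine in mitochondria. Tdh stood at 5.79, 5.19, 3.91 and 4.80 at 50 mg/kg, against 3.72, 3.77, 3.67 and 3.85 at 15 mg/kg (log2 fold change 1.17 [0.85 to 1.49], adjusted p = 1.03e-05). The 15 mg/kg samples, at a mean of 3.75 ± 0.07 (SD), were as low as the 0 mg/kg samples at 3.79 ± 0.08, and 50 mg/kg replicate 4 was just above them. The mean at 15 mg/kg lay at the 16.4th percentile of all genes, so the level was near the dim end of the array before the rise. Tdh stayed called without replicate 2 (0.88, adjusted p = 0.0013) and without the 3 arrays (1.27, adjusted p = 1.2e-08), and was not called when the spread came from these 8 samples (adjusted p = 0.765) or from the DE-71 groups alone (adjusted p = 0.492).

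Egln3, a prolyl hydroxylase of hypoxia-inducible factors, and Stc1, a secreted glycoprotein hormone, rose as well. Egln3 stood at 5.60, 4.85, 4.26 and 5.11 at 50 mg/kg, against 4.27, 3.63, 3.25 and 4.16 at 15 mg/kg (log2 fold change 1.13 [0.73 to 1.53], adjusted p = 0.00289). Stc1 stood at 5.09, 4.97, 4.28 and 4.63 at 50 mg/kg, against 4.03, 4.21, 4.02 and 4.39 at 15 mg/kg (log2 fold change 0.58 [0.31 to 0.85], adjusted p = 0.0415). In each of the pair 3 samples at 50 mg/kg exceeded all 15 mg/kg samples, and both genes were called without the 3 arrays (1.26 and 0.71).

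Iron and heme genes held a fall and a rise. Steap3, a reductase that frees transferrin-bound iron for uptake, stood at 5.44, 6.81, 7.21 and 5.99 at 50 mg/kg, against 7.18, 7.62, 7.35 and 7.40 at 15 mg/kg (log2 fold change -1.03 [-1.42 to -0.63], adjusted p = 0.00667). Slc48a1, which exports heme from endosomes to the cytosol, stood at 8.03, 7.67, 7.34 and 7.87 at 50 mg/kg, against 7.33, 6.99, 7.04 and 7.37 at 15 mg/kg (log2 fold change 0.54 [0.30 to 0.79], adjusted p = 0.0274). Both were called without the 3 arrays (-0.98 and 0.65). Hmox1, the heme-degrading and NRF2-controlled oxygenase, was not called (1.05, adjusted p = 0.239): it stood at 11.55, 8.74, 8.69 and 8.63 at 50 mg/kg, against 8.33, 8.37, 8.11 and 8.59 at 15 mg/kg, so that replicate 2 alone lay far above the rest.

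Secreted and immune-related genes moved in both directions. Slpi, an inhibitor of leukocyte proteases, stood at 8.46, 7.75, 7.41 and 7.59 at 50 mg/kg, against 6.44, 4.45, 6.74 and 7.27 at 15 mg/kg (log2 fold change 1.57 [0.90 to 2.25], adjusted p = 0.0165). The groups did not overlap, but 15 mg/kg replicate 3 was far below the other samples, and without it the log2 fold change was 0.98 (adjusted p = 0.48). Oas1a, an interferon-induced oligoadenylate synthetase of antiviral defence, stood at 7.62, 6.08, 4.82 and 5.12 at 50 mg/kg, against 4.59, 4.64, 4.71 and 4.94 at 15 mg/kg (log2 fold change 1.19 [0.66 to 1.71], adjusted p = 0.0246). A2m, a protease-binding plasma protein that is an acute phase protein in rats, stood at 7.19, 9.11, 10.54 and 8.52 at 50 mg/kg, against 10.23, 10.66, 9.63 and 10.77 at 15 mg/kg (log2 fold change -1.48 [-2.19 to -0.77], adjusted p = 0.0479). For Oas1a and A2m replicate 2 lay farthest out and replicate 4 within the 15 mg/kg range. None of the 3 was called without the 3 arrays (Slpi 1.79, Oas1a 0.95, A2m -1.35).

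St6galnac2, which adds sialic acid to O-linked glycans, stood at 8.19, 4.72, 5.29 and 6.85 at 50 mg/kg, against 5.10, 4.12, 4.38 and 5.36 at 15 mg/kg (log2 fold change 1.52 [0.94 to 2.11], adjusted p = 0.00634). Its 50 mg/kg samples were split, with replicates 2 and 5 high and replicates 3 and 4 within the 15 mg/kg range. Ttc39a, a tetratricopeptide repeat protein gene, stood at 6.30, 5.34, 4.32 and 5.52 at 50 mg/kg, against 3.98, 3.60, 3.73 and 4.38 at 15 mg/kg (log2 fold change 1.45 [0.92 to 1.98], adjusted p = 0.00356). In Ttc39a 3 samples at 50 mg/kg lay above all 15 mg/kg samples. Both were called without the 3 arrays (1.255 and 1.67), a fit in which replicate 5 was the only high 50 mg/kg sample of St6galnac2.

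Of ion channel genes, Scn4b, a sodium channel beta subunit, stood at 5.06, 3.73, 4.11 and 5.15 at 50 mg/kg, against 3.65, 3.58, 3.81 and 3.76 at 15 mg/kg (log2 fold change 0.81, adjusted p = 0.00877). Grin2c, a subunit of the NMDA receptor for glutamate, stood at 7.70, 6.63, 6.85 and 7.37 at 50 mg/kg, against 6.39, 5.94, 6.29 and 6.87 at 15 mg/kg (log2 fold change 0.76, adjusted p = 0.0476). In Scn4b replicates 2 and 5 were high, and in Grin2c replicates 3 and 4 lay within the 15 mg/kg range. Sbspon, a secreted protein gene with a thrombospondin domain, stood at 6.80, 6.0, 4.59 and 5.37 at 50 mg/kg, against 4.79, 4.68, 4.54 and 4.36 at 15 mg/kg (log2 fold change 1.10, adjusted p = 0.00877). Styxl1, which encodes a phosphatase-like protein without activity, stood at 6.40, 5.25, 4.83 and 5.22 at 50 mg/kg, against 4.77, 4.46, 4.70 and 4.90 at 15 mg/kg (log2 fold change 0.72, adjusted p = 0.00877). Replicate 2 was highest in both, and both were called without the 3 arrays (1.02 and 0.59), while Scn4b (0.76) and Grin2c (0.79) were not.

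Of the other rises, the ubiquitin ligase gene Neurl3 stood at 7.99, 6.40, 5.88 and 6.40 at 50 mg/kg, against 5.90, 4.89, 6.24 and 5.93 at 15 mg/kg (log2 fold change 0.93, adjusted p = 0.0415). Lysmd2 stood at 5.48, 5.0, 4.39 and 4.99 at 50 mg/kg, against 3.96, 4.26, 4.15 and 4.39 at 15 mg/kg (log2 fold change 0.78, adjusted p = 0.0476). The groups overlapped in Neurl3 and were apart in Lysmd2 only past the decimals shown. Atp6ap1l stood at 6.96, 6.52, 6.48 and 6.53 at 50 mg/kg, against 6.09, 5.74, 6.04 and 6.47 at 15 mg/kg (log2 fold change 0.54, adjusted p = 0.0422), also just apart. Without the 3 arrays these were 0.73, 0.87 and 0.57 and were not called.

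The 4 remaining falls were those of Trim2, Fgfr3, Usf3 and Kdm5c. Trim2, a ubiquitin ligase gene, stood at 5.58, 6.14, 7.30 and 6.81 at 50 mg/kg, against 7.36, 8.04, 7.36 and 7.33 at 15 mg/kg (log2 fold change -1.06 [-1.51 to -0.62], adjusted p = 0.0144). Fgfr3, a receptor for fibroblast growth factors, stood at 5.99, 7.11, 7.42 and 7.25 at 50 mg/kg, against 7.58, 7.90, 8.06 and 7.52 at 15 mg/kg (log2 fold change -0.83 [-1.21 to -0.44], adjusted p = 0.0422). Neither gene's groups overlapped, and in each replicate 2 was the lowest sample. Usf3, of the upstream stimulatory factor family, stood at 4.02, 5.01, 5.67 and 5.68 at 50 mg/kg, against 6.0, 6.45, 5.87 and 5.83 at 15 mg/kg (log2 fold change -0.94, adjusted p = 0.0422). Kdm5c, an X-linked histone demethylase gene, stood at 4.83, 5.98, 6.15 and 5.84 at 50 mg/kg, against 6.46, 6.80, 6.45 and 6.13 at 15 mg/kg (log2 fold change -0.76, adjusted p = 0.0487). Replicate 2 was again lowest in both, and replicate 4 of Kdm5c lay just within the 15 mg/kg range. Without the 3 arrays these genes stood at -1.11, -0.67, -0.76 and -0.66 and were not called. For 7 of the 28 genes the array held 11 further probe sets, all with the sign of the probe set used, 4 of them, of Trim2, Fgfr3 and Stc1, at an unadjusted p below 0.05. Several of the others were near 0, with -0.10 and -0.12 for Kdm5c, 0.09 for St6galnac2, 0.01 for Osbpl2 and 0.04 for Stc1.

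The P450 and carboxylesterase genes Cyp1a1, Cyp1a2, Cyp2c7, Cyp3a23-3a1 and Ces2c were not called in this step. They are often used to follow AhR, CAR and PXR activity. Aldh3a1, also an AhR target, was called, but between DE-71 15 and 0 mg/kg it differed by -0.008, where Cyp1a1 differed by 5.78. With PCB126 at 250 against 0, Aldh3a1 did not reach an unadjusted p below 0.05. Whether its rise in the step reflects AhR activity was not tested. Of 50 measured index genes of the AhR, CAR, PXR and related pathways, 3 were called (Gsta4, Cyp17a1 and A2m), beside 0.197% of all genes. For 36 the 95% confidence interval of the log2 fold change included 0. For the other index genes it did not, beside 13.7% of all genes at an unadjusted p below 0.05. The index genes were chosen with earlier results of these data known. Cyp1a1, the classic AhR target, stood at 13.35, 12.76, 13.03 and 13.60 at 50 mg/kg, against 13.38, 12.57, 11.84 and 12.97 at 15 mg/kg, a difference of 0.50 [-0.77 to 1.77]. Cyp2c7, a drug-metabolizing P450, stood at 13.28, 13.32, 13.01 and 13.52 at 50 mg/kg, against 12.94, 13.12, 13.10 and 12.96 at 15 mg/kg, a difference of 0.25 [-1.19 to 1.70]. The carboxylesterase gene Ces2c stood at 10.98, 11.15, 11.39 and 10.48 at 50 mg/kg, against 11.54, 11.63, 10.85 and 11.29 at 15 mg/kg, a difference of -0.33 [-0.86 to 0.20]. The fit shares 1 spread per gene over all groups, and the SD of Cyp1a1 was 0.37 at 50 mg/kg, against 1.90 at 0.1 mg/kg, and that of Cyp2c7 0.21 at 50 mg/kg, against 2.23 at 0.1 mg/kg. Tighter intervals were those of Cyp3a23-3a1, a main drug-oxidizing P450, at 0.03 [-0.22 to 0.27], and of Ugt2b1, a glucuronosyltransferase of steroids and drugs, at 0.13 [-0.13 to 0.40]. These P450 and Ugt2b1 levels lay near the top of the array, whose highest value was 14.9, and whether differences are compressed there was not tested.

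Other induced genes had the same outcome. The differences were 0.06 [-0.46 to 0.58] for the export pump gene Abcc3, -0.02 [-0.61 to 0.57] for the epoxide hydrolase gene Ephx1 and 0.14 [-0.20 to 0.48] for the retinal dehydrogenase gene Aldh1a1. They were 0.17 [-1.02 to 1.36] for Cyp2a3, 0.58 [-0.26 to 1.42] for the collectrin gene Cltrn and 0.26 [-0.53 to 1.05] for the quinone reductase gene Nqo1. For Cyp2a3, Cyp3a23-3a1, Abcc3 and Ephx1 the sign itself turned in some of the other fits. Cyp1a2 had an unadjusted interval above 0 (0.37 [0.01 to 0.72]) and was not called (adjusted p = 0.344).

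Other index genes had larger differences that were not called with all samples or without the 3 arrays, but were called without the near-identical pair. Sult1e1, the estrogen sulfotransferase gene, stood at 10.62, 9.54, 7.77 and 9.33 at 50 mg/kg, against 5.81, 4.15, 8.54 and 8.05 at 15 mg/kg (log2 fold change 2.68 [1.35 to 4.0], adjusted p = 0.0611), the widest mean difference among the index genes. Sult2a2, a hydroxysteroid sulfotransferase gene, stood at 12.11, 10.82, 8.27 and 10.01 at 50 mg/kg, against 7.68, 6.99, 10.0 and 8.53 at 15 mg/kg (log2 fold change 2.0 [0.58 to 3.42], adjusted p = 0.215). In both genes the near-identical pair and 15 mg/kg replicate 4 lay below the remaining 50 mg/kg samples and above the remaining 15 mg/kg samples. Cyp1b1, another AhR target, stood at 8.45, 4.84, 6.78 and 10.36 at 50 mg/kg, against 7.45, 4.77, 5.05 and 7.02 at 15 mg/kg (log2 fold change 1.53 [0.56 to 2.50], adjusted p = 0.188), and both groups spanned more than 2 log2 units. On the lower side, Cxcl13, a B cell chemokine gene, stood at -1.71, adjusted p = 0.105, Slc6a6, the taurine transporter gene, at -1.65, adjusted p = 0.148, and Fmo1, a flavin monooxygenase gene, at -0.90, adjusted p = 0.189. Without the near-identical pair the log2 fold changes were 3.67, adjusted p = 0.00244, for Sult1e1, 2.76, adjusted p = 0.0463, for Sult2a2 and 2.12, adjusted p = 0.0261, for Cyp1b1. They were -2.27, adjusted p = 0.00315, for Cxcl13, -2.17, adjusted p = 0.0188, for Slc6a6 and -1.20, adjusted p = 0.0311, for Fmo1.

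Across the dose series the genes differed in where they moved. The 15 and 50 mg/kg contrasts against 0 mg/kg share their controls, and the step shares its samples with both, so the values are given side by side with no comparison among contrasts. At 0, 0.1, 15 and 50 mg/kg, Cyp1a1 averaged 6.91 ± 1.47, 9.27 ± 1.90, 12.69 ± 0.66 and 13.19 ± 0.37 (SD, n = 5, 5, 4 and 4). Ces2c averaged 8.15 ± 0.17, 8.91 ± 0.89, 11.33 ± 0.35 and 11 ± 0.39 at the same doses. Both stood high at 15 mg/kg already, and their means at 50 mg/kg lay within the spread of the 15 mg/kg samples. Gsta4 averaged 10.94 ± 0.18, 11.04 ± 0.19, 11.75 ± 0.24 and 12.32 ± 0.33, and was called in the contrasts of 15 against 0 mg/kg (0.82), of 50 against 0 mg/kg (1.39) and in the step. Aldh3a1 averaged 3.64 ± 0.10, 3.58 ± 0.17, 3.64 ± 0.29 and 5.18 ± 1.74, and Tdh was likewise flat up to 15 mg/kg. A2m averaged 11.40 ± 0.38, 10.99 ± 0.32, 10.32 ± 0.52 and 8.84 ± 1.39, and Cyp17a1 12.06 ± 0.28, 11.82 ± 0.67, 11.40 ± 0.50 and 10.02 ± 1.19, with lower means at each higher dose. Their contrasts of 15 against 0 mg/kg were not called (-1.08, adjusted p = 0.112, and -0.65, adjusted p = 0.354).

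**Figure D3:**
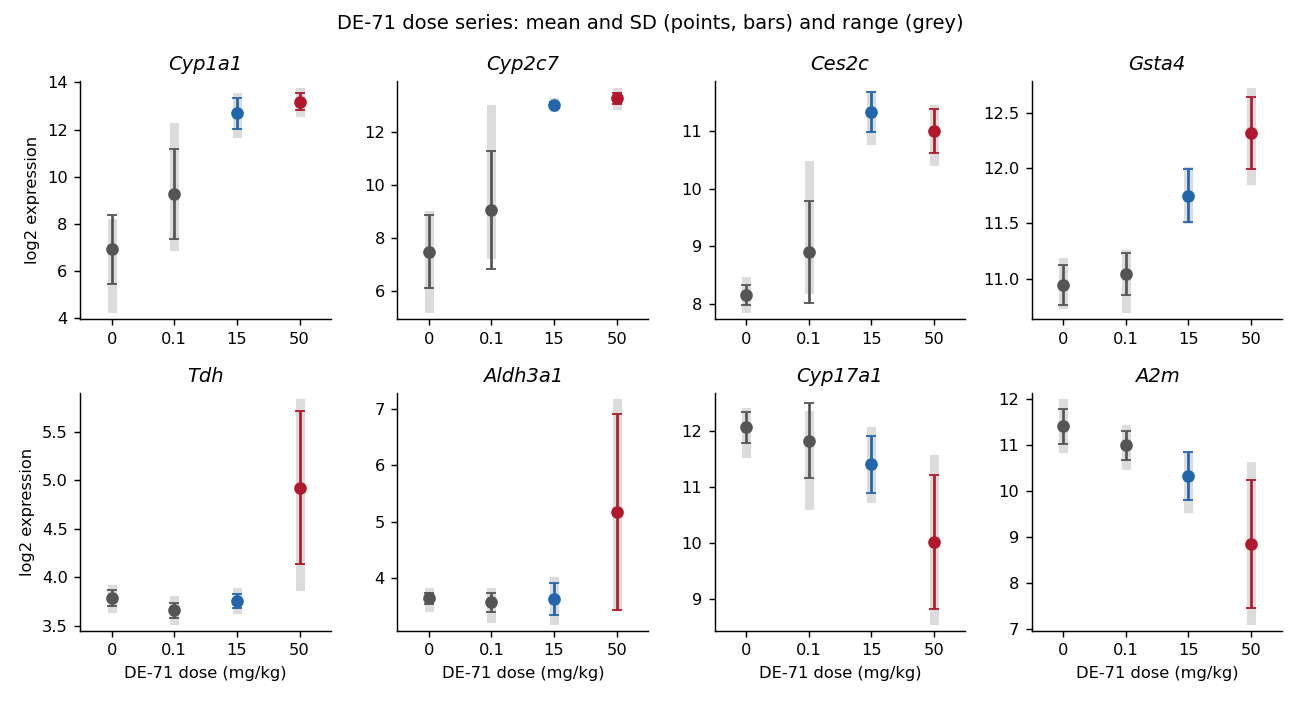
Log2 expression (y axes, each on its own scale) of 8 genes at 0, 0.1, 15 and 50 mg/kg of DE-71 (x axes, doses evenly spaced). Points and bars are the mean and SD of 5, 5, 4 and 4 samples and grey bars the range; Cyp1a1, Cyp2c7 and Ces2c stand high at 15 mg/kg already, and Tdh and Aldh3a1 are flat up to 15 mg/kg with a wide range at 50 mg/kg.

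Read by pathway, how many gene lists held a called member depended on the near-identical pair. Of 42 lists with 1119 measured entries, 10 held a called gene with all samples, 32 without that pair and 6 without the 3 arrays. The AhR targets held 1 of 22 (Aldh3a1), the NRF2 targets 1 of 31 and the glutathione S-transferases 1 of 21 (both Gsta4). Bile acid synthesis and transport held 1 of 29 (Slc27a5), steroid hormone metabolism 1 of 28 and sex-biased liver genes 1 of 29 (both Cyp17a1), sex chromosome genes 1 of 7 (Kdm5c), acute phase proteins 1 of 28 (A2m) and interferon-stimulated genes 1 of 35 (Oas1a). The remaining list was that of hepatocyte markers. Without the near-identical pair the interferon list held 6 called genes, the AhR and steroid lists 5 each, the acute phase, sex-biased, hepatocyte, amino acid and chemokine lists 4 each, and the CAR and PXR list 1, beside 2.81% of all genes. In the paragraphs on lists, adjusted p-values are those with all samples. Of the 54 genes named in the text but not called with all samples, 26 were called without the pair and 0 without the 3 arrays. Many of the 54 were named for a low p with all samples, and the fits share samples. The count of 26 is therefore no separate evidence. Counts at an unadjusted p below 0.05 are to be read beside 7.08% higher and 6.61% lower over all genes. The CAR and PXR targets held 0 of 32, with 4 higher and 2 lower at an unadjusted p below 0.05 and a median of 0.06, against 0.02 over all genes. For the AhR targets these values were 5, 2 and 0.10, and for the NRF2 targets 6, 0 and 0.17. Blvrb, the biliverdin reductase on the NRF2 list, stood at 0.42, adjusted p = 0.212.

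The proteasome list had the largest share of members higher at an unadjusted p below 0.05 after the MHC class II list. The proteasome is the protease complex that breaks down tagged proteins. Of its 36 measured genes, 13 were higher and 0 lower at that level, beside 7.08% higher and 6.61% lower over all genes. With all samples 0 were called, and without the near-identical pair 2 were (Psmb5 and Psmb3), beside 2.81% of all genes. The median was 0.21 with all samples and 0.09 without 50 mg/kg replicate 2. The lowest p-values were those of the catalytic subunit gene Psmb5, which stood at 11.65, 11.12, 10.84 and 11.14 at 50 mg/kg, against 11, 10.62, 10.86 and 10.89 at 15 mg/kg (0.35, adjusted p = 0.202), and of Psmb3 (0.29, adjusted p = 0.229). In Psmb5 replicate 2 was highest and replicate 4 lay within the 15 mg/kg range.

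Immune genes stood higher on several lists, with Oas1a as the called member. Of 35 interferon-stimulated genes, 9 were higher and 0 lower at an unadjusted p below 0.05, and the median was 0.26 with all samples, 0.17 without replicate 2 and 0.27 without the 3 arrays. Of 10 genes of MHC class II antigen presentation, 4 were higher and 0 lower, with a median of 0.26. Cd74, the invariant chain of MHC class II, stood at 9.0, 8.31, 7.88 and 9.31 at 50 mg/kg, against 7.80, 7.08, 7.83 and 7.94 at 15 mg/kg (0.96, adjusted p = 0.229), and RT1-Db1, a rat class II beta chain gene, at 0.89, adjusted p = 0.236. In Cd74 3 samples at 50 mg/kg exceeded all samples at 15 mg/kg. The chemokine list held 5 higher and 2 lower of 24, with Ccl2, a monocyte chemokine gene, at 0.91, adjusted p = 0.124.

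Of the markers of macrophages, lymphocytes and erythroid cells, more stood higher than lower. Of endothelial and stellate cell markers, given further on, more stood lower than higher. Of 22 Kupffer cell and macrophage markers, 5 were higher and 0 lower at an unadjusted p below 0.05, beside 7.08% higher and 6.61% lower over all genes. Named for their low p are Tyrobp (0.60, adjusted p = 0.189) and Fcgr3a (0.64, adjusted p = 0.215), while Cd68 stood at 0.14 and Cd163 at -0.22. By sign alone 16 stood higher and 6 lower, with a median of 0.10, or 0.08 without 50 mg/kg replicate 2. The mean level of the 22 markers ran between 8.10 and 8.51 in the 50 mg/kg samples and between 7.95 and 8.16 in the 15 mg/kg samples. Of 26 lymphocyte markers, 5 were higher and 0 lower, among them Lck (0.36, adjusted p = 0.188) and Klrd1 (0.60, adjusted p = 0.189), with mean levels of 4.60 to 4.88 at 50 mg/kg and 4.38 to 4.63 at 15 mg/kg. By sign 22 stood higher and 4 lower, with Cd3e at 0.04 and Cd8a at -0.008. The median was 0.12, or 0.06 without 50 mg/kg replicate 2. Of 21 erythroid markers, 4 were higher and 0 lower, led by Ahsp, which stabilizes alpha globin (1.0, adjusted p = 0.213), and Rhag (0.33, adjusted p = 0.254), with mean levels of 6.19 to 6.62 at 50 mg/kg and 5.98 to 6.26 at 15 mg/kg. By sign 18 stood higher and 3 lower, with a median of 0.17, or 0.19 without 50 mg/kg replicate 2. The neutrophil list had 1 of 13 higher, Lcn2 (1.12, adjusted p = 0.188), which is about the share over all genes. The pancreas and gut list had 4 of 28 higher, among them the intestinal fatty acid binding protein gene Fabp2 (1.10, adjusted p = 0.215). With all samples these lists held 0 called genes. Without the near-identical pair 2 Kupffer cell markers (Tyrobp and Fcgr3a), 1 erythroid marker (Ahsp) and 1 neutrophil marker (Lcn2) were called, beside 2.81% of all genes. The ranges of the mean levels overlapped between the groups. The part of such cells in the differences of the immune lists was not tested.

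Hepatocyte functions stood lower on several lists. Of 44 genes of amino acid catabolism and the urea cycle, 11 were lower and 0 higher at an unadjusted p below 0.05, beside 6.61% lower over all genes. Their median was -0.17, or -0.14 without 50 mg/kg replicate 2. Agxt, which detoxifies glyoxylate, stood at 9.10, 9.12, 9.38 and 9.35 at 50 mg/kg, against 9.88, 9.96, 9.88 and 9.58 at 15 mg/kg (-0.58, adjusted p = 0.158), and Glud1, glutamate dehydrogenase, at -0.47, adjusted p = 0.202. The groups did not overlap in Agxt. Neither was called with all samples, and both were without the near-identical pair, when 4 of the 44 genes were called, beside 2.81% of all genes. Of 36 hepatic nuclear receptors and coregulators, 10 were lower and 1 higher, led by the corepressor gene Ncor1 (-0.50, adjusted p = 0.177) and Nr3c1, the glucocorticoid receptor (-0.37, adjusted p = 0.189). PPAR-alpha targets and fatty acid oxidation had 6 lower of 43, led by Acadm, medium-chain acyl-CoA dehydrogenase (-0.46, adjusted p = 0.0933), and Plin2, a lipid droplet coat protein (-0.44, adjusted p = 0.189). The list's median was -0.19, or -0.15 without 50 mg/kg replicate 2.

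Secreted and glucose-related hepatocyte genes had more members lower than higher at that level. Coagulation and complement had 7 lower and 0 higher of 29, led by Plg, plasminogen (-0.29, adjusted p = 0.189), and Serpind1, heparin cofactor (-0.30, adjusted p = 0.262). Glucose and glycogen metabolism had 6 lower and 2 higher of 26, among them the gluconeogenic Fbp1 (-0.36, adjusted p = 0.156) and the glycogen phosphorylase gene Pygl (-0.30, adjusted p = 0.215). The coagulation and complement median was -0.12 with all samples and -0.05 without 50 mg/kg replicate 2. For glucose and glycogen metabolism the medians were -0.12 and -0.06. Of 21 hepatocyte markers, 8 were lower and 0 higher, with Cyp2e1 called and a median of -0.12, or -0.07 without 50 mg/kg replicate 2. Their mean level ran between 12.13 and 12.45 in the 50 mg/kg samples and between 12.36 and 12.57 in the 15 mg/kg samples. Whether fewer hepatocytes have a part in these lower levels was not tested, and Alb itself differed by -0.02 (adjusted p = 0.84).

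Lists of stress and growth gave smaller or mixed counts. The unfolded protein and integrated stress response had 2 higher and 8 lower of 41, among them the endoplasmic reticulum chaperone gene Hspa5 (-0.41, adjusted p = 0.215), with Sdf2l1, another protein of that compartment, on the higher side (0.55, adjusted p = 0.235). Thyroid hormone handling and response had 5 lower and 0 higher of 28, led by Ncor1 and the calcium pump gene Atp2a2 (-0.53, adjusted p = 0.177). The cell cycle list of 47 genes had 0 higher and 1 lower, Ccnd1, encoding cyclin D1 (-1.13, adjusted p = 0.189), and its median was 0.14 with all samples and 0.42 without the 3 arrays. Respiratory chain subunits had 7 higher and 0 lower of 48, led by Atp5po (0.26, adjusted p = 0.215), and their median was 0.02 without replicate 2, against 0.07 with it. Endothelial markers had 3 lower of 20, among them Kdr (-0.39, adjusted p = 0.218), and stellate cell markers 3 lower and 3 higher of 26, with Pdgfra at -0.60, adjusted p = 0.218. Cholesterol biosynthesis had 0 of 24 in either direction.

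**Figure D4:**
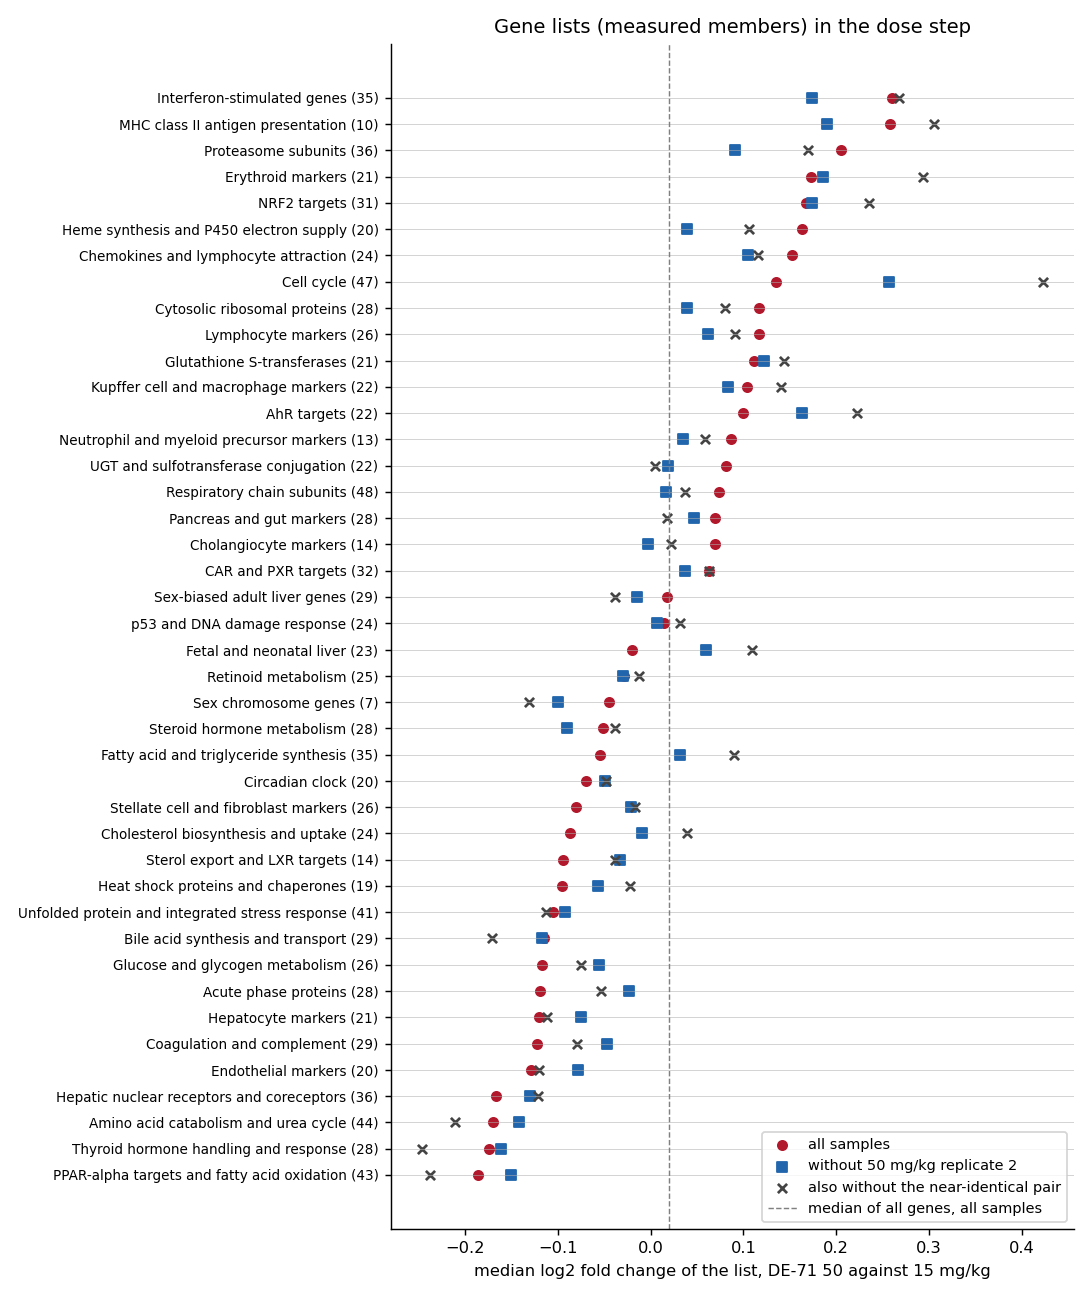
Median log2 fold change of the members of 42 gene lists between DE-71 50 and 15 mg/kg (x axis), with the number of measured members in brackets (y axis). Red circles use all samples, blue squares leave out 50 mg/kg replicate 2, crosses also leave out the near-identical pair, and the dashed line is the median of all genes at 0.02; the interferon list is highest at 0.26, and the cell cycle and proteasome medians move with the samples left out.

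The same step of PBDE-47 was set beside that of DE-71 to ask whether the step differed between the mixture and its congener. For PBDE-47, limma called 0 genes between 50 and 15 mg/kg, with 427 at an unadjusted p below 0.05. The 28 genes had a median absolute log2 fold change of 0.935 for DE-71 and 0.282 for PBDE-47, and 25 had the same sign for both agents, but they were chosen as the ones called for DE-71. The test of the difference, the DE-71 step minus the PBDE-47 step, called 0 genes with all samples (572 unadjusted), 5 without the near-identical pair of DE-71 and 1 without the 3 arrays. Those were Slpi (2.53), St6galnac2 (2.12), Aldh3a1 (2.05), Tdh (1.251) and Osbpl2 (0.53) without the pair, and Tdh (0.99, adjusted p = 0.00423) without the 3 arrays. PBDE-47 has a near-identical pair across these doses too, and without the pairs of both agents the same 5 genes were called. Leaving out DE-71 50 mg/kg replicate 2 as well as both pairs gave 0 calls (380 unadjusted), so Tdh was not called there either. With no difference at all, about 0.05 of the 14217 genes would lie below the unadjusted level. The counts of 427, 572 and 380 were below that share.

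For single genes the intervals of that difference showed where the agents lay apart before adjustment. Slpi differed by 2.06 [1.15 to 2.96] (adjusted p = 0.392), from a step of -0.48 [-1.08 to 0.12] for PBDE-47. Tdh differed by 0.88 [0.45 to 1.31] and St6galnac2 by 1.59 [0.81 to 2.37] (adjusted p = 0.457 for each), against PBDE-47 steps of 0.29 [0.00019 to 0.58] and -0.07 [-0.59 to 0.46]. Aldh3a1 differed by 1.51 [0.72 to 2.31] (adjusted p = 0.784), with a PBDE-47 step of 0.03 [-0.50 to 0.57]. For Ttc39a, Egln3 and Gsta4 the intervals of the difference, 0.43 [-0.27 to 1.14], 0.45 [-0.08 to 0.99] and 0.32 [-0.03 to 0.66], included 0, and the PBDE-47 steps were 1.02 [0.55 to 1.49], 0.67 [0.32 to 1.03] and 0.26 [0.02 to 0.49]. A p-value above the threshold does not show that the agents acted alike in these genes.

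**Figure D5:**
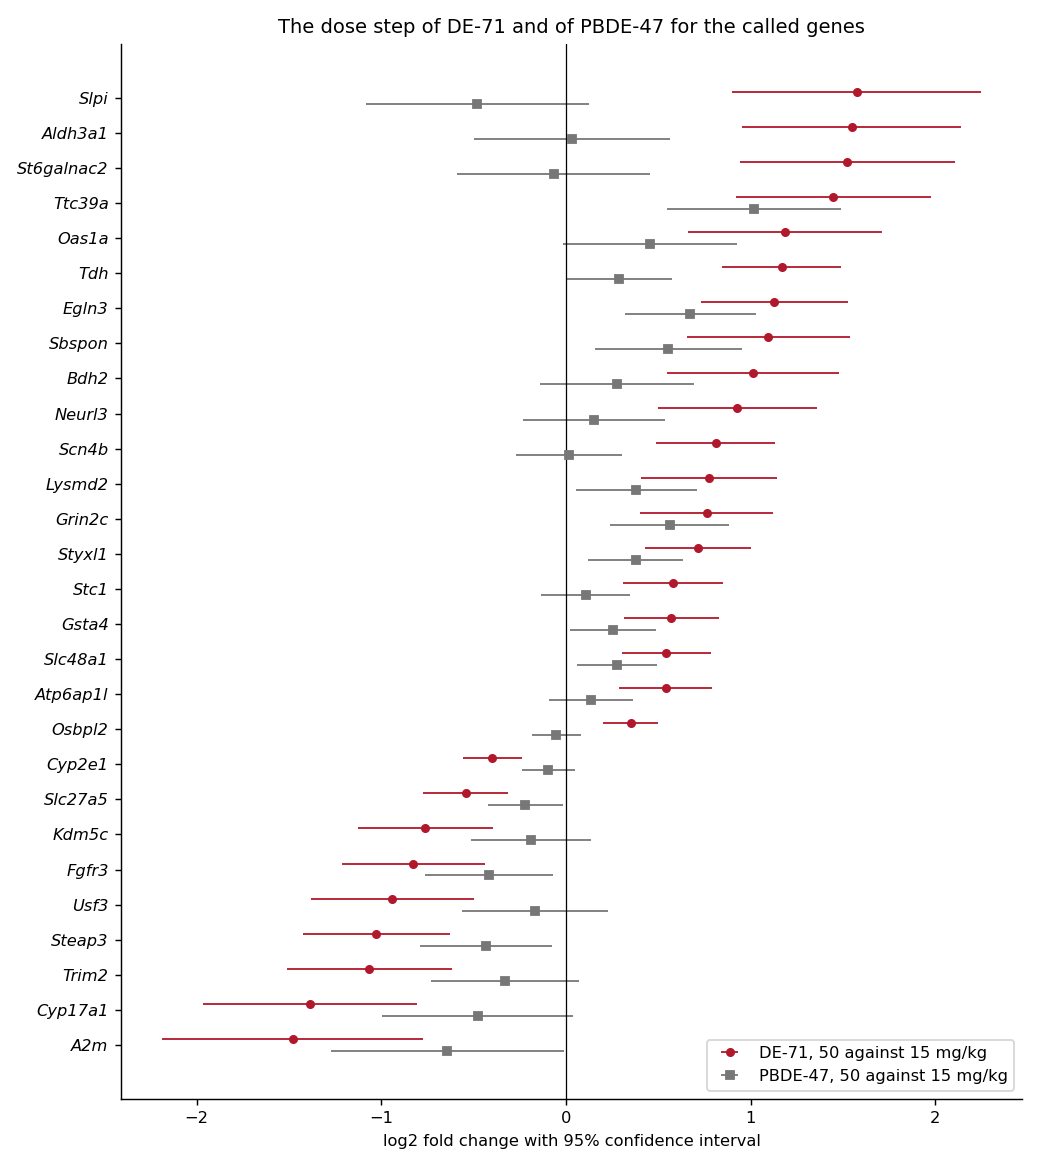
Log2 fold change of 50 against 15 mg/kg with its 95% confidence interval (x axis) for the 28 genes called for DE-71 (y axis), red circles for DE-71 and grey squares for PBDE-47. The DE-71 step is the larger of the 2 in all 28 genes, which were chosen on it, and 25 have the same sign for both agents.

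Some of the 28 genes were also called for other agents against their own 0 mg/kg groups. Phenobarbital at 45 against 0 mg/kg, the classic CAR activator, called 4 of the 28, beside 2.7% of all genes: Ttc39a (1.20), Egln3 (0.70), Gsta4 (0.75) and Steap3 (-0.71), each with the sign of the DE-71 step. An unadjusted p below 0.05 was held by 11 of the 28, beside 1814 of all 14217 genes. PCB126 at 250 against 0, a dioxin-like AhR agonist, called 0 of the 28, beside 0.0563% of all genes. At an unadjusted p below 0.05 there were 5 (Scn4b, Gsta4, Neurl3, Lysmd2 and A2m), beside 827 of all 14217 genes. Aldh3a1 was not among them. PBDE-47 at 50 against 0 mg/kg called 9, beside 4.03% of all genes, among them Ttc39a (1.74), Egln3 (1.20), Sbspon (1.23) and A2m (-1.80). At an unadjusted p below 0.05 there were 16 of the 28, beside 2236 of all 14217 genes. These comparisons share no samples with the DE-71 step, but the same fit gave each gene 1 spread for all of them. The overlaps are therefore not independent of the calls in the step.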

How the data were processed

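The values are log2 expression levels that the authors deposited for 74 arrays, made by RMA per the submitters' processing notes, with no version given. The sorted values of the DE-71 arrays differed less among themselves (mean SD 0.0466) than those of all arrays (0.0693), as if agents had been normalized apart, so contrasts were made within agents. Of 31099 probe sets, 57 were controls, 20826 named 1 gene in the platform annotation (of 2016), 436 named several and 9780 none. The brightest probe set stood for each of 14217 genes, of which 4525 had several.

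Of 656 pairs of arrays compared, 4 were nearly identical (root mean square difference below 0.3), namely 2 within a group, which were averaged, and 2 across dose labels, of DE-71 and of PBDE-47. Group means of all 15 groups were fitted with limma 3.58.1 in R 4.3.3 (57 residual and 5.003 prior degrees of freedom), with contrasts between them and Benjamini-Hochberg adjustment over all genes. The script was tested on simulated data. The number of arrays limits the precision.

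The members, gene lists and tests were chosen with earlier results of these data known. The text names the called genes, up to 4 called or 2 other members per list by p, a set of index genes of the pathways, and the genes leading the difference between agents and the calls without the doubtful arrays. Alternatives left out samples, took the spread from fewer groups, and changed weights, normalization, probe sets and level filters, and 6 of them were chosen after seeing the data. Promoters are RefSeq windows of GRCr8.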

Additional observations from a re-analysis of the deposited data

Results flagged for a closer look

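Among the 82 genes named or considered, each group of 4 samples was searched for a sample far from the rest (by Dixon's ratio at its 95% critical value), and 9 of 164 groups held one, where chance gives about 1 in 20. In the 50 mg/kg group this was replicate 2 each time, and in the 15 mg/kg group replicate 3. Replicate 2 at 50 mg/kg stood at 11.55 for Hmox1 (others 8.63 to 8.74), at 11.01 for Blvrb (10.19 to 10.32), at 6.96 for Atp6ap1l (6.48 to 6.53) and at 8.14 for Kdr (8.99 to 9.13). Replicate 3 at 15 mg/kg stood at 8.04 for Trim2 (others 7.33 to 7.36), at 7.25 for Tiparp (7.03 to 7.05), at 7.08 for Cd74 (7.80 to 7.94), at 9.35 for Kdr (9.15 to 9.17) and at 8.401 for Pdgfra (7.73 to 7.78). Of these genes, Atp6ap1l and Trim2 were called in the step.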

How the results depend on the processing

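All 28 called genes kept their sign in every alternative that tested them, while their number varied widely. With 1 sample left out it ranged from 1 gene (replicate 2 of the 50 mg/kg group) and 2 genes (replicate 3 of the 15 mg/kg group) to 531 (replicate 4 of the 50 mg/kg group), with 1 to 303 risen and 0 to 228 fallen. It was 399 without the near-identical pair (200 risen, 199 fallen), 14 without the 3 arrays (11 risen, 3 fallen), 54 with all 74 arrays as separate samples (31 risen, 23 fallen), 4 with array weights (4 risen, 0 fallen) and 9 among the 7109 genes at or above the median level (4 risen, 5 fallen). Taking the mean of all probe sets gave 20 calls, 5 of them fallen. limma called 0 genes when the spread came from both groups alone (644 unadjusted), also without the pair (1158), without replicate 2 (350) or without the 3 arrays (698), and 0 from the DE-71 groups alone (841), or 3, all risen, without the 3 arrays. With no difference at all, about 0.05 of the 14217 genes would lie below the unadjusted level. In the remaining alternatives the number of calls stood between 24 and 32. The difference between the agents' steps gave 0 to 5 calls with 1 sample left out, 5 without the pair of DE-71 or the pairs of both agents, 1 without the 3 arrays, and 0 otherwise. Replicate numbers did not pair the samples (correlations of deviations 0.12, 0.32, -0.19 and -0.19, and not every sample correlated best with its own number), and the replicate block gave 25 calls, 22 of them shared, and 0 for the difference (626 unadjusted). Among the 54 uncalled genes the text may name, signs turned for 4, and other uncalled genes were not tallied. Without the pair 26 of the 54 were called, but many of the 54 were named for a low p with all samples. Cyp2a3 ranged between -0.22 and 0.55 with 1 sample left out and was -0.060 with 74 arrays. Cyp3a23-3a1 was -0.0068 without the 3 arrays, ranged between -0.044 and 0.066 with 1 left out, and was -0.0032 without replicate 2, whichever groups gave the spread. Abcc3 ranged between -0.075 and 0.19 with 1 left out and was -0.014 with 74 arrays. Ephx1 was 0.0081 without the 3 arrays, 0.016 with array weights and ranged between -0.18 and 0.11 with 1 left out. The causes were not tested.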

Other observations

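With all samples the following gene lists held no called gene in the step between DE-71 50 and 15 mg/kg. Without the near-identical pair, 3 clock genes, 2 each of the ribosomal, conjugation and fatty acid lists, and 1 each of the heme, p53 and fetal lists were called. These counts stand beside 2.81% of all genes called in that fit. Their counts at an unadjusted p below 0.05 stand beside 7.08% higher and 6.61% lower over all genes. Of 28 cytosolic ribosomal protein genes, 4 were higher and 0 lower, with a median log2 fold change of 0.12, or 0.04 without 50 mg/kg replicate 2. Of 20 genes of heme synthesis and P450 electron supply, 3 were higher and 1 lower, with a median of 0.16, or 0.04 without replicate 2. Of 22 conjugation genes (UDP-glucuronosyltransferases and sulfotransferases), 3 were higher, Sult1e1 and Sult2a2 among them, and 1 was lower. Fatty acid and triglyceride synthesis had 1 higher and 5 lower of 35, and the circadian clock 1 higher and 3 lower of 20. The p53 and DNA damage list had 3 in each direction of 24, retinoid metabolism 2 higher and 1 lower of 25, and fetal and neonatal liver genes 2 higher and 1 lower of 23.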
